A study of Rattus norvegicus and Mus musculus with 56 samples.

Results

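The side difference after nerve injury in rats was read from 16 libraries of spinal dorsal horn, 8 from the ipsilateral side and 8 from the contralateral side, out of 56 libraries in the whole series. They were chosen by their labels: rat, spared nerve injury (SNI) and side. The ipsilateral side is the side of the operated nerve. Another 16 rat libraries came from sham surgery, again 8 per side, and are set beside the SNI libraries as a comparison without nerve injury. All 32 rat libraries were from wild-type Sprague-Dawley animals, and poly(A) RNA was extracted from dorsal horn at spinal levels L4 and L5 on postoperative day 7. The 8 SNI libraries of each side were 4 from females (F) and 4 from males (M), and so were the 8 sham libraries of each side. The labels do not give the age of the animals, how many were pooled for a library, or which ipsilateral and contralateral libraries came from the same animal. P-values therefore measure the spread between these libraries.

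In SNI, branches of the sciatic nerve in the hind limb are injured while a neighbouring branch is left intact, and the skin served by the spared branch becomes hypersensitive. The injured fibres end in the dorsal horn of the lumbar cord on the same side, where sensory input is passed to local neurons. On that side the model is known for activation of microglia and astrocytes and for altered signalling among dorsal horn neurons. The opposite dorsal horn of the same cord receives little direct input from the injured nerve and often serves as an internal control, although it shares the animal's circulation and its general state. The series set the dorsal horn response of both sexes of rats and mice side by side, and the side comparison asks which transcripts differ between the operated and the unoperated side.

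The values are reads counted per gene by the authors, listed under rat Ensembl identifiers. The files do not pair these identifiers with gene names. Gene groups, cell type markers, positions and sequences were therefore not analysed here, and the tissue label was not checked against markers. Levels are given as CPM, the reads of a gene per M (mega) gene reads of its library after scaling. CPM is not corrected for gene length, so levels are compared between libraries and not between genes. Called genes are those with an adjusted p under 0.05 in limma's trend test on log2 CPM, with Benjamini-Hochberg adjustment over the 15851 genes tested of 32545 listed. A gene is called higher or lower according to its level on the ipsilateral side relative to the contralateral side.

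The sides had similar depth. Ipsilateral SNI libraries held 23.6 to 35.6 M gene reads, against 20.4 to 32.96 M in contralateral SNI libraries, with means of 28.4 ± 4.31 and 28.4 ± 4.23 M (SD, n = 8 each; two-sided exact permutation p = 0.977). The share of reads that fell on genes averaged 62.6% ± 1.79 in ipsilateral and 62.3% ± 1.45 in contralateral SNI libraries (SD, n = 8 each; two-sided exact permutation p = 0.752). The 4 SNI libraries titled 25 to 32, which are libraries 7 and 8 of each side, had 59.5% to 61.1% of their reads on genes, and the other 12 had 61.8% to 65.4%. Replicates are numbered by accession order within a group, and the labels do not state whether libraries with equal numbers, which have neighbouring titles, came from the same animal. In a principal component analysis of the 16 SNI libraries, the first component held 22.4% of the variance. On it 7 of 8 ipsilateral libraries had positive scores and 8 of 8 contralateral libraries had negative scores. The exception was ipsilateral library 4 (M), whose score lay within the contralateral range.

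The ipsilateral dorsal horn had 1576 called genes (9.94% of those tested). More of them were higher than lower: 1028 genes were higher (6.49%) and 548 were lower (3.46%). At an unadjusted p under 0.05 there were 3425 genes (21.6%). In bulk tissue, more cells of a type and more RNA per cell cannot be told apart. The balance between the directions depended on the processing and on single libraries. Of called genes, 65.2% were higher with TMM scaling and 79.6% with scaling by library totals alone, where the median log2 fold change of all tested genes was 0.02 in place of -0.01. The counts were nearer to each other with the group of 8 titles as a further term, at 1338 higher and 1195 lower genes, and without ipsilateral library 1, at 1088 higher and 853 lower genes.

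The 2 directions differed in size. Among called genes the log2 fold change had a median of 0.65 for higher genes (range 0.13 to 4.29) and -0.28 for lower genes (range -3.22 to -0.11). Over all tested genes the median log2 fold change was -0.01 and the median absolute value was 0.09. A difference past 2-fold was called for 315 higher genes (1.99% of tested genes) and for 14 lower genes (0.0883%). At least 4-fold differences were called for 37 higher and 3 lower genes. Small differences were more common among the lower genes, 497 of which differed by less than 1.5-fold, against 477 of the more numerous higher genes. The standard error of the log2 fold change had a median of 0.0995 for called higher genes and 0.0713 for called lower genes.

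The called genes also differed in level. The mean level over the 16 SNI libraries had a median of 12.1 CPM for called higher genes, 52.8 CPM for called lower genes and 20.5 CPM for all tested genes. Among 3855 tested genes between 1 and 10 CPM, 10.5% were called higher and 1.5% were called lower. Among 2076 genes at 100 CPM or more, 4.29% were called higher and 8.14% were called lower. The lower calls thus outnumbered the higher ones only in the most abundant of 4 level classes. In that class the median log2 fold change was 0.23 for called higher and -0.24 for called lower genes, while all its genes together had a median of -0.05. Among the 1721 genes under 1 CPM, 61 were called higher and 12 lower. Low counts need a larger difference to be called, and no tested gene had 0 reads in all 8 libraries of a side.

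**Figure D1:**
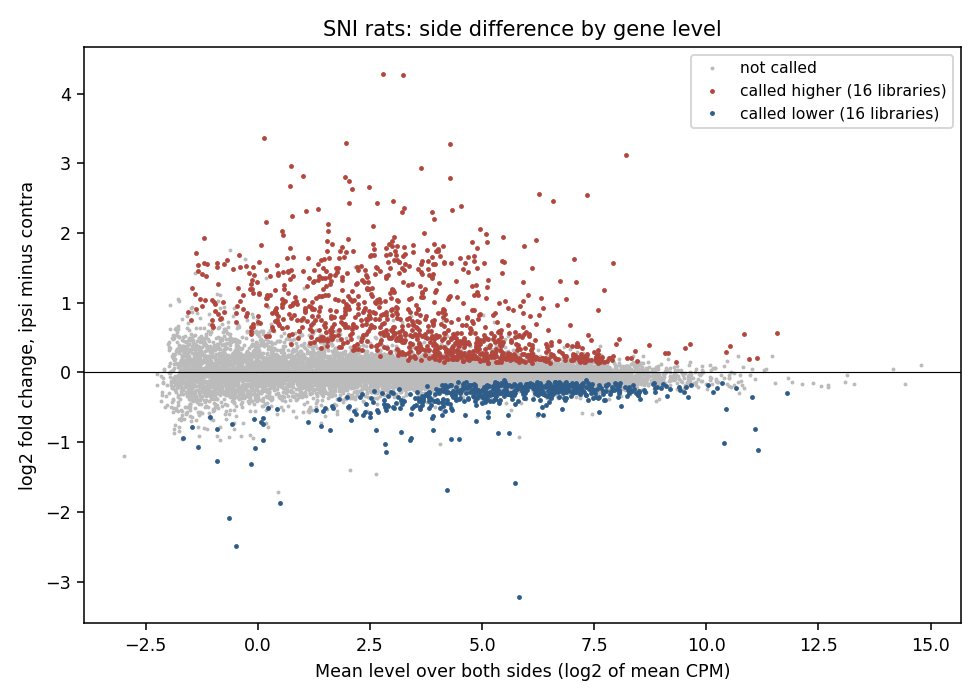
The log2 fold change of each tested gene, ipsilateral minus contralateral in SNI rats (vertical axis), against its mean level over both sides on a log2 scale of CPM (horizontal axis). The 1028 genes called higher (red) reach 4.29 and lie mostly at low and middle levels, while the 548 called lower (blue) lie close to the zero line and reach to high levels.

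The plot of side differences by level shows 2 different shapes: a wide fan of higher genes on the left and in the middle, and a narrow band of lower genes that extends to the right. The reads involved were a small part of each library. Shares of gene reads are given as summed CPM, so they include the scaling of each library. Genes called higher held 5.35% in ipsilateral SNI libraries and 3.89% in contralateral SNI libraries, against 4.19% in ipsilateral and 4.09% in contralateral sham libraries. Genes called lower held 6.05% in ipsilateral SNI libraries and 7.54% in contralateral SNI libraries, against 7.04% in ipsilateral and 7.28% in contralateral sham libraries. The SNI libraries chose these genes, so their shares are a description. In the contralateral SNI libraries the share of the higher genes lay slightly below both sham groups and that of the lower genes slightly above.

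Separation between single libraries was common for higher genes and rare for lower genes. Of 15851 tested genes, 508 (3.20%) had all 8 ipsilateral SNI libraries above all 8 contralateral ones, and 25 (0.158%) had all 8 below. In sham rats no gene was separated in either direction. Of the 1028 genes called higher, 506 were separated completely and another 206 had 7 of 8 ipsilateral libraries above the contralateral range. Of the 548 called lower, 24 were separated completely, 132 had 7 ipsilateral libraries below the contralateral range and 186 had 6. For most genes called lower, some libraries of the 2 sides overlapped. The same SNI libraries made the calls, so the separation of called genes is a description.

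By the rule for named genes, the 2 higher and the 2 lower genes with the smallest p are given with their levels. ENSRNOG00000011947 ran from 21.2 to 28.7 CPM in ipsilateral SNI libraries (median 24.999), against 6.48 to 8.98 CPM in contralateral SNI libraries (median 7.20). These levels rest on 571 to 997 reads per ipsilateral library and 162 to 256 reads per contralateral library. Each ipsilateral library lay above each contralateral one, so the sides did not overlap. The gene was 3.34-fold higher on the ipsilateral side (log2 fold change 1.74, SE 0.0658, limma adjusted p = 1.4e-11). The difference was 1.72 in F and 1.76 in M libraries on the log2 scale. Within the 4 successive groups of 8 titles, it lay between 1.63 and 1.83.

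In sham rats the same gene stood at 6.06 to 11.01 CPM in ipsilateral libraries (median 7.78) and at 5.30 to 9.74 CPM in contralateral libraries (median 7.43). The sham sides overlapped, and both lay near the level of the contralateral SNI side. The log2 difference between the sham sides was 0.12 (SE 0.117, limma adjusted p = 1). The side difference was larger under SNI than under sham by 1.63 on the log2 scale (SE 0.138, limma interaction, adjusted p = 8.09e-09). Ipsilateral SNI libraries stood above ipsilateral sham libraries by 1.65 (limma adjusted p = 2.19e-12), and contralateral SNI libraries differed from contralateral sham libraries by 0.03 (adjusted p = 1). The gene called between the SNI sides was also called between SNI and sham on the ipsilateral side. That comparison and the interaction use the SNI libraries that picked the gene, so they are not independent of the side test. The same holds for the other named genes.

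ENSRNOG00000013886 showed a wider gap. It ran from 24.4 to 40.5 CPM in ipsilateral SNI libraries (median 35.5), against 5.35 to 7.81 CPM in contralateral SNI libraries (median 6.54). Reads per library were 648 to 1227 on the ipsilateral and 110 to 253 on the contralateral side. The sides did not overlap, and the ipsilateral libraries were more spread out than the contralateral ones, with SDs of 5.75 and 0.994 CPM around means of 33.7 and 6.59 CPM (n = 8 each). The gene was 5.05-fold higher on the ipsilateral side (log2 fold change 2.34, SE 0.106, limma adjusted p = 1.61e-10), at 2.25 in F and 2.42 in M libraries. Within the groups of 8 titles the difference lay between 2.02 and 2.47.

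In sham rats ENSRNOG00000013886 stood at 5.15 to 14.7 CPM in ipsilateral libraries (median 7.75) and at 6.54 to 8.78 CPM in contralateral libraries (median 7.28). One ipsilateral sham library, number 2 (M), carried the highest sham value of 14.7 CPM, which was still below the lowest ipsilateral SNI library. The log2 difference between the sham sides was 0.04 (limma adjusted p = 1), and the side difference was larger under SNI by 2.29 (SE 0.214, limma interaction, adjusted p = 1.86e-08). Ipsilateral SNI libraries stood above ipsilateral sham libraries by 2.08 (limma adjusted p = 3.98e-11), and contralateral SNI libraries differed from contralateral sham libraries by -0.22 (adjusted p = 1).

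ENSRNOG00000015155, the lower gene with the smallest p, ran from 4.32 to 9.69 CPM in ipsilateral SNI libraries (median 7.60), against 11.1 to 16.5 CPM in contralateral SNI libraries (median 13.8). Reads per library were 126 to 283 on the ipsilateral and 268 to 541 on the contralateral side. The sides did not overlap. The level on the ipsilateral side was 0.511 times that on the contralateral side (log2 fold change -0.97, SE 0.135, limma adjusted p = 5.31e-05). The difference was -1.12 in F libraries and -0.82 in M libraries, and the difference between the sexes was -0.30 (limma interaction, adjusted p = 1).

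Its sham levels spread more widely. Sham libraries ran from 8.68 to 16.3 CPM on the ipsilateral side (median 14.9) and from 9.40 to 47.7 CPM on the contralateral side (median 14.7). The sham sides overlapped, and the contralateral sham mean of 19.1 ± 12.7 CPM (SD, n = 8) included library 3 (F) at 47.7 and another library at 27.2 CPM. The log2 difference between the sham sides was -0.34 (SE 0.274, limma adjusted p = 1). The side difference under SNI minus that under sham was -0.62 (SE 0.329), which was not called (limma interaction, adjusted p = 0.616). On the ipsilateral side, SNI libraries were lower than sham libraries by a log2 difference of -0.89 (limma adjusted p = 0.0164). On the contralateral side that difference was -0.27 (adjusted p = 1).

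ENSRNOG00000008625 had a small and even difference. It ran from 30.6 to 38.99 CPM in ipsilateral SNI libraries (median 34.3), against 37.8 to 48.4 CPM in contralateral SNI libraries (median 45.5). The sides overlapped, because contralateral library 5 (M) lay below ipsilateral library 1 (F). Means were 34.2 ± 2.97 CPM on the ipsilateral and 44.4 ± 3.52 CPM on the contralateral side (SD, n = 8 each). The log2 fold change was -0.38 (SE 0.0559, limma adjusted p = 0.000108), at -0.42 in F and -0.34 in M libraries, and between -0.41 and -0.33 within the groups of 8 titles.

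In sham rats ENSRNOG00000008625 stood at 32.9 to 52.5 CPM in ipsilateral libraries (median 41.2) and at 38.1 to 51.3 CPM in contralateral libraries (median 41.3). The sham libraries covered nearly the whole range of both SNI sides. The log2 difference between the sham sides was -0.06 (limma adjusted p = 1), and the SNI side difference minus the sham side difference, -0.32 (SE 0.105), was not called (limma interaction, adjusted p = 0.13). On the ipsilateral side, SNI libraries were lower than sham libraries by a log2 difference of -0.25 (limma adjusted p = 0.0389), and on the contralateral side that difference was 0.06 (adjusted p = 1). Both lower genes were called between SNI and sham on the ipsilateral side, in a test that reuses the ipsilateral SNI libraries that picked them. Their interaction of side and surgery was not called, which does not show that the side differences under SNI and sham were alike.

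**Figure D2:**
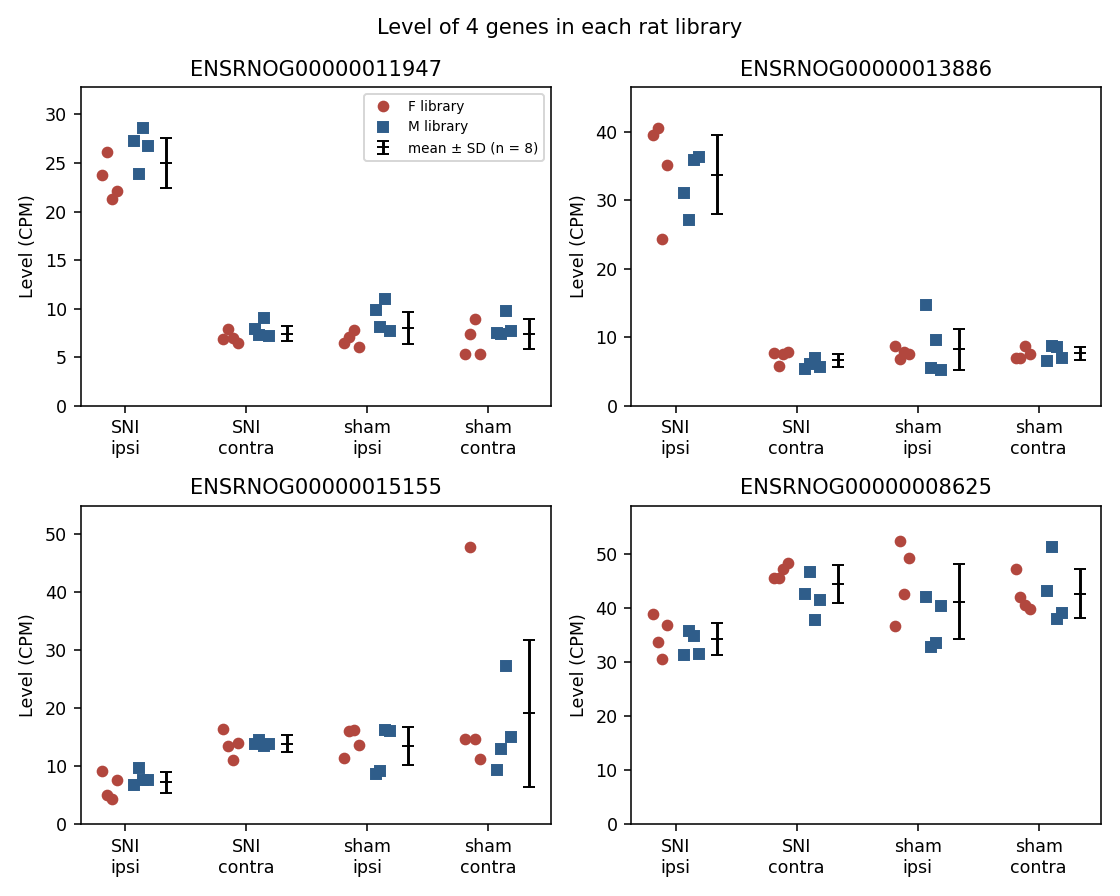
Levels in CPM (vertical axes, from 0) of the 4 named genes in each rat library, by surgery and side (horizontal axes), with F libraries as red circles, M libraries as blue squares and bars for the mean ± SD of 8 libraries. In the upper panels the ipsilateral SNI libraries, at 21.2 to 28.7 and 24.4 to 40.5 CPM, stand above the other 3 groups, while in the lower panels they overlap with sham libraries.

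The 4 genes were not those with the largest differences. Among called higher genes, 69 had a larger fold change than ENSRNOG00000011947, and among called lower genes 144 had a smaller one than ENSRNOG00000008625. In the plot of the 4 genes by library, the ranges of F and M points overlap on both SNI sides of the higher genes. For ENSRNOG00000011947 on the ipsilateral SNI side, M libraries ran from 23.9 to 28.7 CPM and F libraries from 21.2 to 26.1 CPM. Each of the 4 genes kept its sign and its call in the alternatives tried, which reuse the SNI libraries that picked them.

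The next question was whether F and M rats shared the side difference. In F libraries alone (4 per side), 428 genes were called (2.70%), 405 of them higher (2.56%) and 23 lower (0.145%). In M libraries alone (4 per side), 694 genes were called (4.38%), 609 higher (3.84%) and 85 lower (0.536%). At an unadjusted p under 0.05 there were 1701 genes in F libraries (10.7%) and 2456 genes in M libraries (15.5%). These counts do not compare the sexes, and the difference itself was tested. In limma's interaction of sex and side, 0 of 15851 genes were called (smallest adjusted p = 1). At an unadjusted p under 0.05 there were 85 genes (0.536%), and limma with voom weights called 0 as well, with 87 unadjusted. Interaction estimates past 1 on the log2 scale occurred in 68 genes, and the median absolute estimate was 0.07. With 4 libraries per sex and side, a sex difference of moderate size may not have been detectable. The 0.536% was also below the 5% that p-values spread evenly would give, so the 0 called does not show that the sexes were alike.

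Genes picked in one sex were then read in the libraries of the other, which had no part in picking them. All 405 genes called higher in F libraries were also higher in M libraries on the ipsilateral side. Over all tested genes, 47.2% were higher in M libraries. Of the 405, 376 were called higher in M libraries (92.8%, against 3.84% of all tested genes). The median log2 fold change of the 405 genes was 1.16 in F and 1.17 in M libraries. All 609 genes called higher in M libraries were higher in F libraries too, against 47.9% of all tested genes. Of the 609, 376 were called higher in F libraries (61.7%, against 2.56% of all tested genes). The median of the 609 genes was 0.89 in F and 0.97 in M libraries. In both directions of reading, the higher genes kept their sign and nearly their size.

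Lower genes kept their sign more often than their call. Of 23 genes called lower in F libraries, 22 were lower in M libraries (95.7%, against 52.8% of all tested genes). Of the 23, 2 were called lower in M libraries (8.7%, against 0.536% of all tested genes). The median log2 fold change of the 23 was -0.63 in F and -0.38 in M libraries. Of 85 genes called lower in M libraries, all 85 were lower in F libraries (against 52.1% of all tested genes). Of the 85, 2 were called lower in F libraries (2.35%, against 0.145% of all tested genes). The medians of the 85 were -0.33 in F and -0.35 in M libraries. Across all 15851 tested genes, the log2 fold changes of F and M libraries had a Pearson r of 0.799 and a Spearman rho of 0.606, and 73.6% had the same sign. Genes are not independent replicates, so these values describe the 2 sets of libraries.

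**Figure D3:**
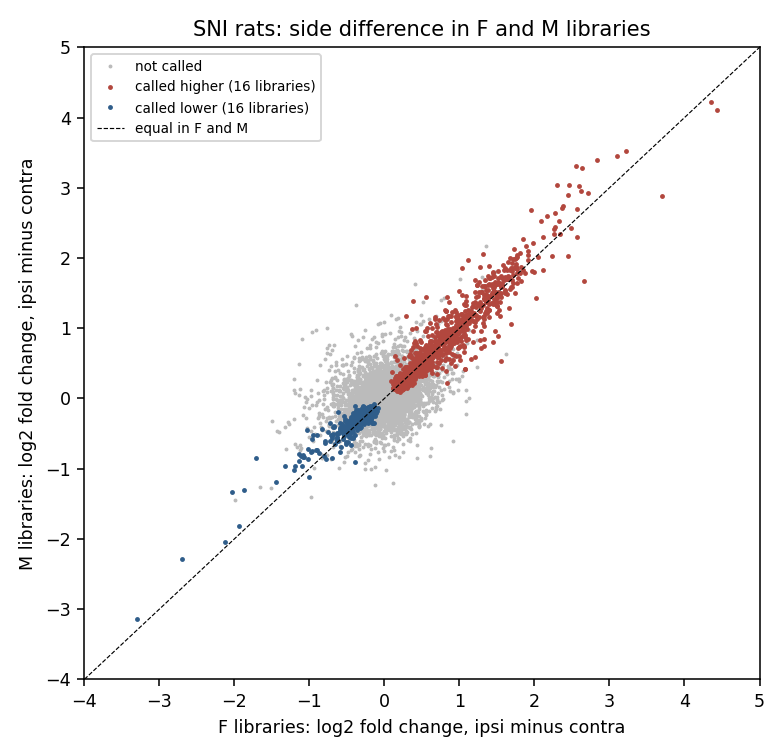
The log2 fold change of each tested gene, ipsilateral minus contralateral, in F libraries (horizontal axis) and M libraries (vertical axis) of SNI rats, coloured by the call over all 16 libraries, with a dashed line where both are equal. Genes called higher (1028, red) and called lower (548, blue) run along the dashed line, and the genes not called (grey) form a cloud around 0.

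The plot of F against M differences is coloured by calls that used both sexes, so its coloured genes had to lie in the upper right and lower left. What it adds is the distance of each gene from the dashed line, which grows with the absolute size of its interaction estimate.

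The same split gave each library a level of its own. For each library, the genes called in the other sex were averaged as log2 differences from the mean of the contralateral sham libraries of its own sex. With the 609 genes called higher in M, the F ipsilateral SNI libraries 1, 3, 6 and 8 stood at 1.11, 1.07, 0.86 and 0.88. The F contralateral SNI libraries 1, 3, 6 and 8 stood at 0.03, -0.14, 0.09 and -0.00. With the 405 genes called higher in F, the M ipsilateral SNI libraries 2, 4, 5 and 7 stood at 1.01, 0.81, 1.17 and 1.09, against -0.18, -0.25, -0.10 and -0.35 in the M contralateral SNI libraries 2, 4, 5 and 7. Each ipsilateral SNI library stood well above each contralateral one of its sex, the lowest being ipsilateral library 4, the one that also stood apart on the first principal component.

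These higher genes were raised broadly in single libraries. The share of them that lay above all 4 contralateral SNI libraries of the same sex was 91.8% in the lowest ipsilateral SNI library (number 8, F) and 100% in the highest (number 5, M). For ipsilateral sham libraries the reference was the contralateral sham libraries. The share above all 4 of these of the same sex ran from 3.95% to 71.4%, so the 2 sets of shares have different references. The highest sham share was that of library 2 (M). Its level of 0.44 was above the other ipsilateral sham libraries, at -0.21 to 0.14, and below each ipsilateral SNI library. Contralateral sham libraries lay between -0.11 and 0.17 by construction around 0. The means were 0.98 ± 0.127 in F and 1.02 ± 0.154 in M ipsilateral SNI libraries, against -0.00 ± 0.0946 in F and -0.22 ± 0.103 in M contralateral SNI libraries (SD, n = 4 each).

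The lower genes gave a smaller and less even level. With the 85 genes called lower in M, the F ipsilateral SNI libraries 1, 3, 6 and 8 stood at -0.03, -0.34, -0.64 and -0.30, against 0.03 to 0.20 in the F contralateral SNI libraries. With the 23 genes called lower in F, the M ipsilateral SNI libraries 2, 4, 5 and 7 stood at -0.67, -0.21, -0.56 and -0.64, against -0.30 to -0.01 in the M contralateral SNI libraries. The sides did not overlap in F, where library 1 lay close to the contralateral range, and they overlapped in M at ipsilateral library 4. Sham libraries ran from -0.34 to 0.31 on the ipsilateral and from -0.38 to 0.37 on the contralateral side, so several sham libraries reached the level of the ipsilateral SNI libraries nearest to 0.

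**Figure D4:**
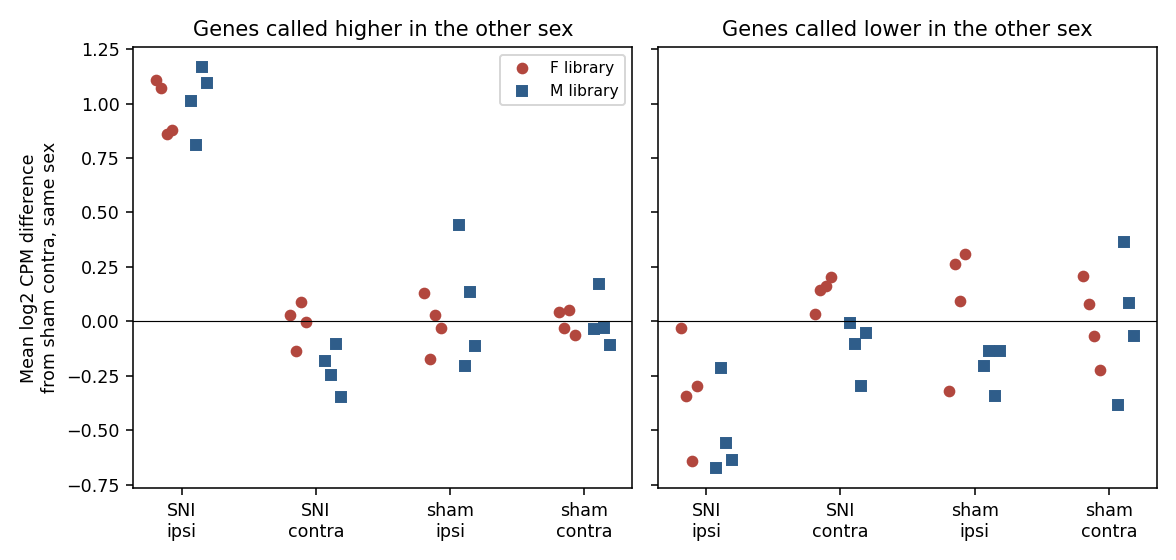
Mean log2 CPM difference of each rat library from the contralateral sham libraries of its own sex (vertical axis), by surgery and side (horizontal axis), for genes called higher (left) or lower (right) in SNI libraries of the other sex. On the left the ipsilateral SNI libraries lie between 0.81 and 1.17, above each library of the other groups, and on the right they lie between -0.67 and -0.03 and overlap with sham libraries.

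The plot of library levels places ipsilateral sham library 2 as the highest blue square outside the ipsilateral SNI group on the left. On the right it shows the wide spread of sham libraries on both sides. Single libraries decided the number of lower calls over the 16 SNI libraries. That number was 853 without ipsilateral library 1, 360 without ipsilateral library 2, 343 without ipsilateral library 7 and 338 without contralateral library 4, against 548 with all 16. The number of higher calls stayed between 913 and 1088 when any 1 library was left out. Without the 4 libraries titled 25 to 32, there were 857 higher and 188 lower genes.

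The sham libraries were tested for a side difference without nerve injury. Between the sham sides, limma called 0 of 15851 genes (0%), and limma with voom weights called 0 too. At an unadjusted p under 0.05 there were 84 genes (0.530%) with either weighting, below the 5% that p-values spread evenly would give. The named genes had larger standard errors in sham (0.0906 to 0.274) than in SNI (0.0559 to 0.135). They were picked by a small p in SNI, so these values do not stand for all genes. With p-values short of an even spread, the 0 called does not show that the sham sides were alike.

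The genes called between the SNI sides were read in the sham libraries, which had no part in calling them. Of 1028 genes called higher in SNI, 627 (61.0%) had a positive sham difference, against 55.7% of all tested genes. Their median sham log2 difference was 0.02 (range -0.60 to 0.52), and that of all tested genes was 0.01. None of the 1028 differed more than 2-fold in sham, where 1 of all 15851 tested genes did. In the SNI libraries that called them, 315 of the 1028 did. In sham, 7 of the 1028 had an unadjusted p under 0.05, against 84 (0.530%) of all tested genes. The higher genes thus stood near the background of all genes in sham rats.

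The lower genes leaned the same way in sham. Of 548 genes called lower in SNI, 97 (17.7%) had a positive sham difference, and their median was -0.05 (range -0.44 to 0.36). In sham, 1 of the 548 had an unadjusted p under 0.05, against 84 (0.530%) of all 15851 tested genes. The lean was seen at most levels: the share with a negative sham difference was 75.9% of called lower genes between 1 and 10 CPM, 82.8% between 10 and 100 CPM and 85.8% at 100 CPM or more. For all tested genes of those classes it was 45.3%, 42.8% and 44.3%. Under 1 CPM it was 6 of 12 called lower genes and 49% of all genes. In size the sham differences were small. None of the called lower genes differed more than 2-fold in sham, where 1 of all tested genes did. In SNI only 14 of the called lower genes did.

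**Figure D5:**
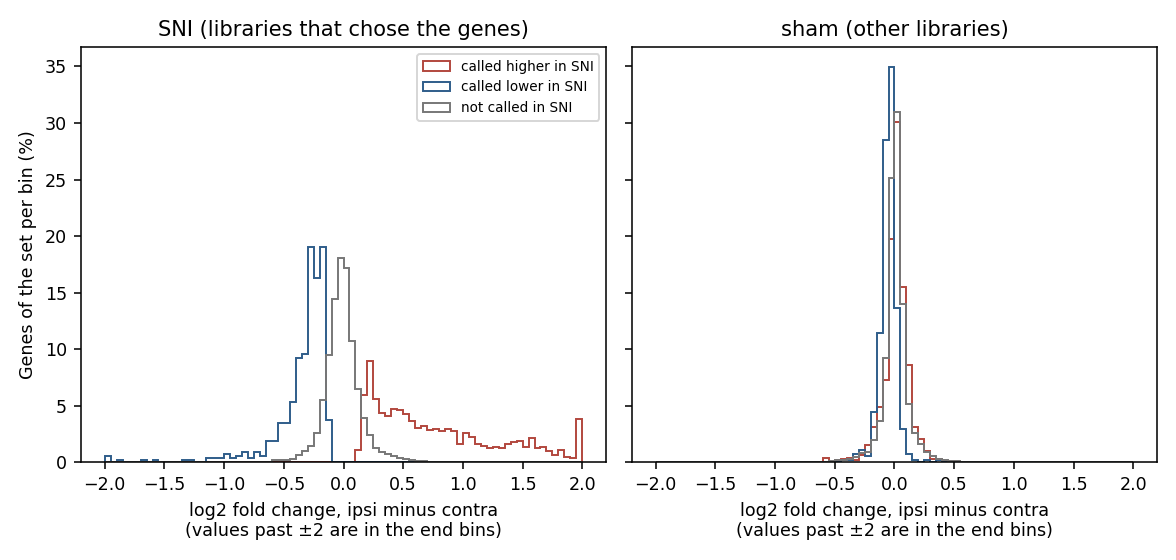
Share of genes (vertical axis, percent of each set per bin) by log2 fold change, ipsilateral minus contralateral (horizontal axis), in SNI rats (left) and sham rats (right), for genes called higher, called lower or not called in SNI. The sets had to separate on the left, where their calls were made, and on the right they lie close to 0, with the called lower genes shifted to a median of -0.05.

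The plot of both surgeries shows the same 3 gene sets collapsing to one narrow peak in sham libraries, with the lower genes a little to the left of the others. The test of the difference between surgeries used all 32 rat libraries. The side difference under SNI exceeded or fell short of that under sham in 548 genes (3.46%) by limma's interaction of side and surgery. Of these, 542 had a higher side difference under SNI (3.42%) and 6 had a lower one (0.0379%). That total happens to equal the number of lower calls between the SNI sides. At an unadjusted p under 0.05 there were 1482 genes (9.35%). The number called was 492 to 659 with 1 of the 32 libraries left out, and it was highest without ipsilateral sham library 2. Set against sham, the side difference of SNI rats was therefore called nearly wholly in the higher direction. Genes called lower between the SNI sides had smaller differences (median -0.28, against 0.65 for those called higher). For the named genes the standard error was 0.105 to 0.329 in this interaction and 0.0559 to 0.135 between the SNI sides. These genes were picked by a small p between the SNI sides, so their values do not stand for all genes. The part of small differences in the split was not tested.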

How the data were processed

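The deposited values are whole-number read counts per gene made by the authors, without normalization. STAR is named as a tool, and Rnor_6.0, GRCm38 and mm10 as builds, per the submitters' processing notes. Which program counted the reads, with which annotation and strand setting, is not given in the sources used here, so reads of overlapping genes, antisense partners and near-identical copies may be shared. Per the labels, poly(A) RNA was extracted on columns. The tables hold tab-separated lines although their file type is comma-separated, and could not be read as counts by the unit check, so the planned count test was replaced by limma's trend method on log2 CPM.

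Each file holds 32545 rat genes and 5 entries that name no gene. In the SNI libraries reads in no feature averaged 22.0% on the ipsilateral and 22.4% on the contralateral side, and these entries stayed out of library sizes and tests. Genes were kept that reached about 10 reads, scaled to the median library, in at least 8 of the 32 rat libraries with a total of at least 15, which left 15851 genes. Library scaling used TMM, a trimmed mean of log ratios between libraries (trims of 30% of ratios and 5% of levels; factors 0.936 to 1.05). Log2 CPM used a prior count of 2, which understates fold changes of genes with few reads. The fit over 16 SNI libraries had terms for sex and side, with a mean-variance trend and robust moderation. F and M libraries were also fitted alone (4 against 4), and the interaction of sex and side in the 16. Sham libraries were fitted in the same way, and the interaction of side and surgery in a model of 8 group means. Tests were two-sided with Benjamini-Hochberg adjustment, and a gene was called under 0.05. Library measures were compared by exact permutation, 4 measures in all, each with an adjusted p of 0.977. Over 56 pairs of libraries of the same group, chi-square per degree of freedom for the reads was 12.0 to 99.1, so no library was counted as a repeat of another.

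The named genes are the 2 called higher and the 2 called lower genes with the smallest p that had the same sign in F and M libraries. Members, comparisons and rules were chosen with earlier results of these data known. Alternatives covered scaling, filters, prior count, voom weights, covariates, thresholds and libraries left out. The mouse libraries were not used here. The scripts' statistics were tested on simulated data. Work was done in R 4.3.3 with limma 3.58.1 and statmod 1.5.0, and in Python 3.11.15 with numpy 2.4.6, pandas 2.3.3 and matplotlib 3.10.9.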

Additional observations from a re-analysis of the deposited data

Results flagged for a closer look

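Among 38 groups of 8 libraries looked at for a single library far from the rest, 2 held one, and chance gives about 1 in 20 groups. For ENSRNOG00000013886, ipsilateral sham library 2 (M) stood at 14.7 CPM and the next highest at 9.53 CPM, a gap of 0.54 of the group's range. For ENSRNOG00000015155, contralateral sham library 3 (F) stood at 47.7 CPM and the next highest at 27.2 CPM, a gap of 0.535 of the group's range.

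The other results named here are side differences that were not the same under SNI and sham, by limma's interaction of side and surgery. The interaction was 1.63 for ENSRNOG00000011947 and 2.29 for ENSRNOG00000013886 on the log2 scale, and 548 genes were called in it.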

How the results depend on the processing

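The 4 named genes kept sign and call in all 116 values computed. Their small p picked them in these libraries, which the alternatives reuse, so this is a description. The number of higher calls between the SNI sides stayed at 783 to 1338 in the alternatives run, within 1.5 times of 1028. The number of lower calls, 548, did not: it was 309 with library totals, 188 without the libraries titled 25 to 32, 1195 with the group of 8 titles as a further term, 365 with all 32 libraries in the model and 163 at an adjusted p under 0.01. Leaving out each library gave 338 to 853. With the filter and TMM taken from the 16 SNI libraries alone, an alternative chosen after seeing the data, there were 1069 higher and 437 lower genes.

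In F libraries the 405 higher calls became 241 with no filter on low counts, and the 23 lower calls became 1 without the libraries titled 25 to 32 and 3 to 90 with 1 library left out (90 without ipsilateral library 1). In M libraries the 609 higher calls became 393 without the libraries titled 25 to 32. The 85 lower calls became 53 with library totals, 54 with no filter, 14 without the libraries titled 25 to 32 and 22 to 171 with 1 library left out (171 without ipsilateral library 4). Every F library but contralateral library 1, and every M library, moved its lower count by over 1.5 times. The causes were not tested. The sham and the sex interaction counts were 0 in each alternative run.

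No paired analysis was possible because nothing in the labels ties an ipsilateral library to a contralateral library of the same animal, and the replicate numbers follow accession order. Ipsilateral and contralateral SNI libraries of the same sex have neighbouring titles, and whether these share an animal is not stated. A pairing by title order was not fitted, and the counts here rest on models without one. If neighbouring titles do share an animal, the SNI, sham and interaction counts ignore that pairing.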
